A study of Mus musculus with 12 samples.

Results

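Postsynaptic scaffold genes encode the proteins that hold receptors, signalling enzymes and actin together beneath the membrane of excitatory synapses. The 9 genes described here (Shank1, Shank2, Shank3, Dlg4, Dlgap3, Dlgap4, Homer1, Ppp1r9b and Caskin1) were chosen by symbol from the 24060 genes of the count table, after the ratio of immunoprecipitated (IP) to input RNA in these libraries had been seen. IP over input values are therefore given as a description, with no p-value for a member, and nothing is read from which members a fit called in those contrasts. All 9 were among the 14354 genes that passed the filter on low counts.

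The data were RNA-seq counts from brain white matter of male Tie2-Cre:Rpl22-HA (RiboTag) mice, in which Cre driven by the Tie2 promoter switches on an HA-tagged copy of Rpl22, and the tagged ribosomes are then pulled down with an HA antibody. Tie2 is active in endothelial cells and also in some blood-derived cells, and the tag reports the lineage of a cell and not its state at sampling. Animals 489, 555 and 556 ate control-fat chow (CFD), in which fat supplies 10% of kcal, and animals 516, 517 and 676 ate high-fat chow (HFD), with 60%, which produces diet-induced obesity (DIO). Every mouse gave 1 IP and 1 input library. All 12 libraries share the genotype, and the labels give no age.

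In the postsynaptic density, Dlg4 sits at the membrane and binds the tails of glutamate receptors, Dlgap proteins link it to the Shank proteins below, and Homer1 joins Shanks to metabotropic glutamate receptors and to calcium stores. Ppp1r9b (spinophilin) brings a phosphatase to actin in dendritic spines, and Caskin1 is a multidomain partner of the scaffold Cask. These genes are best known from neurons. White matter consists mainly of myelinated axons and glia, and several of these mRNAs, Shank1, Dlg4 and Dlgap3 among them, are known to travel into dendrites.

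The genes lie on 7 chromosomes of mm10, and 8 of the 9 have transcripts rich in G and C. To show this at the level of sequence, the opening 120 bases of the longest coding exon are given below for the 3 genes with the largest IP over input difference in CFD and for Homer1, the gene that ran the other way. Sequences are from RefSeq (GRCm38.p6, the mm10 assembly), all on the plus strand, and capitals mark G and C. They are from coding exon 1 of Ppp1r9b (chr11:94991548-94991667, 72.5% GC), coding exon 18 of Caskin1 (chr17:24504020-24504139, 52.5% GC), coding exon 23 of Shank1 (chr7:44351557-44351676, 60.8% GC) and coding exon 5 of Homer1 (chr13:93355940-93356059, 49.2% GC).
Ppp1r9b: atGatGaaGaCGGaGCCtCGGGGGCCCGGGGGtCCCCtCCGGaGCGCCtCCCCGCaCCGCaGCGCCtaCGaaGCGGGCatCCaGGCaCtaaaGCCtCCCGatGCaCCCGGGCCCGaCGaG
Caskin1: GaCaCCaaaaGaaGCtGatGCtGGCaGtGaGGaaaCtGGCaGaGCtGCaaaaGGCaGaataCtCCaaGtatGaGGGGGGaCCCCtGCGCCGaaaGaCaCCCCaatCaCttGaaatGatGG
Shank1: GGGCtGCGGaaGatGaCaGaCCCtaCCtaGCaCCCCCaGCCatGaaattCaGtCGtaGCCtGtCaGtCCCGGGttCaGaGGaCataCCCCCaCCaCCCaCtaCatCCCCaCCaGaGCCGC
Homer1: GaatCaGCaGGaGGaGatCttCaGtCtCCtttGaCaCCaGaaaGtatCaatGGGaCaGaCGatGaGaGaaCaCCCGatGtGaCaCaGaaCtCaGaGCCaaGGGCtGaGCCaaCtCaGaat

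Libraries held 19567186 to 33660708 counts. Levels are CPM (counts relative to library size) scaled by edgeR's TMM factors, which limit the weight of a few very abundant RNAs. The ribosomal RNA gene Rn45s took 40.1% ± 1.97 (SD, n = 3) of counts in CFD IP, 18.0% ± 1.06 in HFD IP, 10.9% ± 2.97 in CFD input and 8.0% ± 1.51 in HFD input. Without these factors the median log2 fold change of all tested genes moved from -0.01 to -0.84 in CFD IP against CFD input and from 0.03 to 0.61 in HFD IP against CFD IP, so directions below are relative to the bulk of genes. Endothelial markers were sparse: the 15 listed markers summed to 18.7 to 46.5 CPM in CFD input, 60.0 to 291 in CFD IP, 41.2 to 79.1 in HFD input and 39.9 to 108 in HFD IP, and 1 to 10 of them had at most 3 counts in a library. Tek, the gene of Tie2 itself, had 0 counts in 5 of the 12 libraries and at most 80. In HFD, the input library of animal 676 held 133 counts of Xist, a transcript of female cells, against at most 7 in any other library, and the IP library of the same animal held 0. Results in HFD are therefore also given without animal 676. In whole tissue, fewer cells of a type and less RNA per cell cannot be told apart.

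Relative to the bulk of genes, 8 of the 9 stood higher in IP than in input on both diets, and Homer1 stood lower. In the fit across all genes the difference in CFD ran from a log2 fold change of 0.74 (Shank2) to 1.90 (Ppp1r9b) for the 8 genes and was -0.56 for Homer1, and in HFD from 0.37 (Dlg4) to 1.40 (Ppp1r9b), with Homer1 at -0.51. The median of the 9 was 1.0 in CFD and 0.86 in HFD, beside -0.01 in each diet over all tested genes. Without the scaling factors the medians were 0.18 and 0.41, Shank2 turned to -0.06 in CFD, and Dlg4 to -0.0039 in CFD and -0.06 in HFD. In that CFD fit Shank1 and Caskin1 stood at 0.52 and 0.79 and were not called, and Homer1, at -1.37, was among 997 genes called lower. With the scaling factors, 6 of the 9 were higher in IP in all 6 animals, as were 4.09% of tested genes, and Homer1 was lower in all 6 animals, as were 4.15%. Relative to library totals alone, Dlgap4 and, slightly, Shank3 stood lower in IP than in input in animal 555, and Dlgap3 in animal 517.

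**Figure D1:**
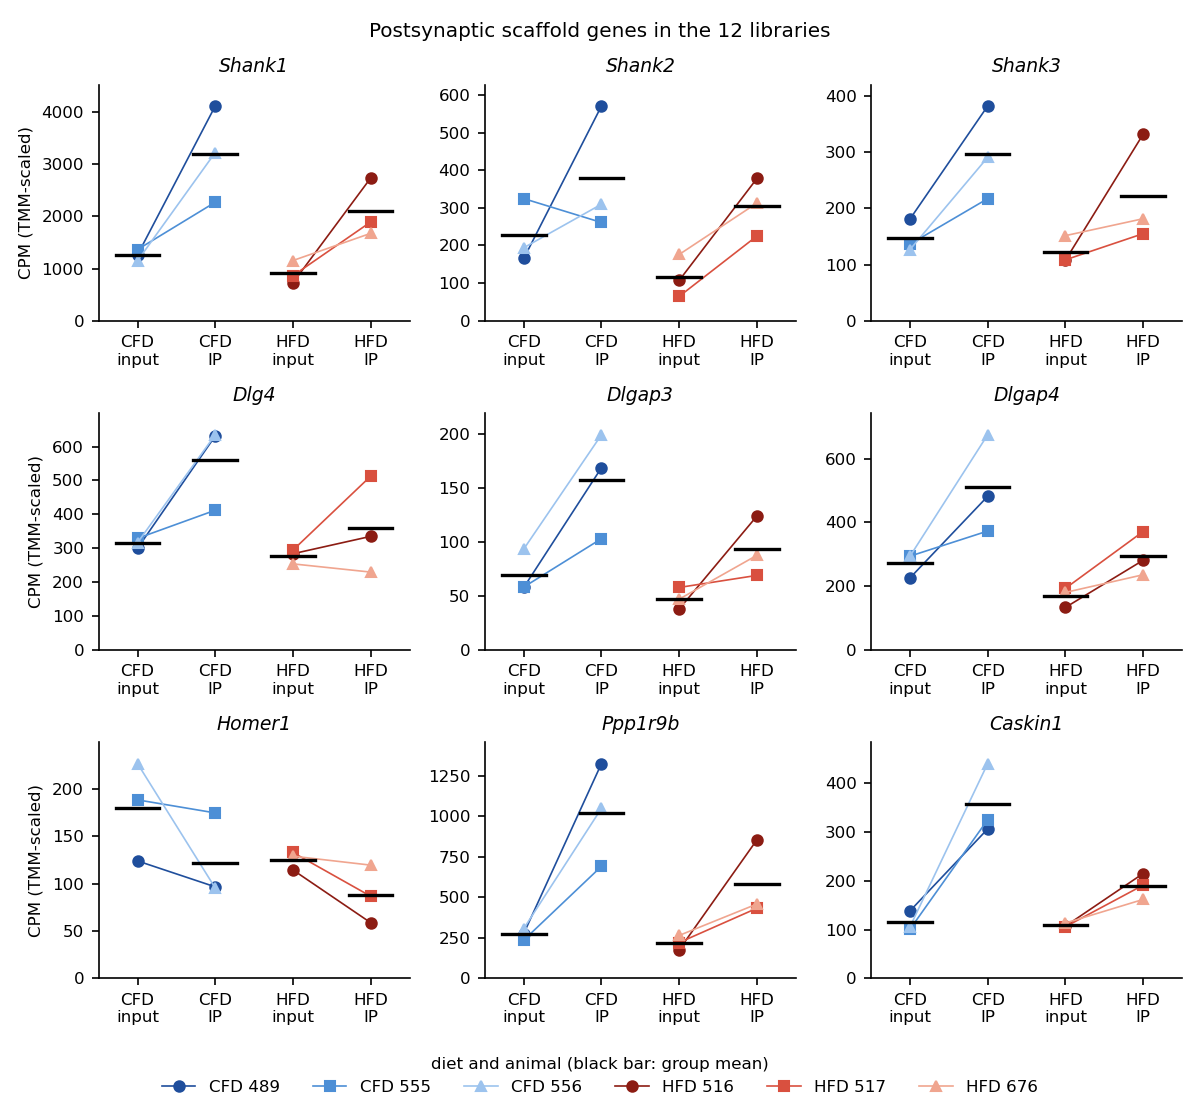
Level of each gene in the 12 libraries, as TMM-scaled CPM on a linear axis from 0; each point is a library, lines join input and IP of the same animal, and black bars are means of 3 animals. IP points lie above their input for every animal in 6 genes, while for Homer1 they lie below.

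Dlg4 (chromosome 11, 70017203 to 70045535) encodes the membrane-proximal scaffold. In CFD input it stood at 299, 329 and 316 CPM in animals 489, 555 and 556, and in IP at 631, 412 and 635. In HFD input it stood at 283, 294 and 253 CPM in animals 516, 517 and 676, and in IP at 335, 513 and 229. IP and input did not overlap in CFD, but in HFD animal 676 had less Dlg4 in IP than in input. The log2 ratio of IP to input of the same animal averaged 0.80 ± 0.42 (SD, n = 3) in CFD and 0.30 ± 0.48 in HFD.

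Dlgap3 (chromosome 4, 127168305 to 127237022) and Dlgap4 (chromosome 2, 156613633 to 156764363) encode linkers between Dlg4 and the Shanks. Dlgap3 was the lowest of the 9 genes per length in every group, with 57.6, 58 and 93.3 CPM in CFD input and 169, 103 and 199 in CFD IP. In HFD it stood at 37.6, 57.6 and 46.8 CPM in input and 124, 68.8 and 87.5 in IP. Its IP values lay above all input values on both diets, with log2 ratios of 1.16 ± 0.36 in CFD and 0.96 ± 0.73 in HFD. Dlgap4 stood at 225, 293 and 293 CPM in CFD input and 481, 372 and 675 in CFD IP. In HFD it stood at 132, 192 and 180 CPM in input and 281, 371 and 235 in IP. Dlgap4 was therefore higher in IP in each animal, by 0.88 ± 0.47 in CFD and 0.81 ± 0.37 in HFD on the log2 scale.

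The Shank genes encode the large scaffolds of the deeper layer of the density. Shank1 (chromosome 7, 44308916 to 44360094) gave 40.6% to 51.5% of the counts of the 9 genes in a library. It stood at 1262, 1364 and 1149 CPM in CFD input and 4111, 2269 and 3221 in CFD IP, and at 728, 863 and 1154 CPM in HFD input and 2733, 1892 and 1674 in HFD IP. Every IP library lay above every input library, and the log2 ratio averaged 1.31 ± 0.51 in CFD and 1.19 ± 0.69 in HFD. Shank3 (chromosome 15, 89493013 to 89560261) stood at 181, 136 and 127 CPM in CFD input and 382, 217 and 291 in CFD IP, and at 108, 108 and 151 CPM in HFD input and 332, 155 and 182 in HFD IP. Shank3 was higher in IP in all 6 animals, by 0.98 ± 0.28 in CFD and 0.80 ± 0.72 in HFD on the log2 scale, with animal 516 at 1.62 and animal 676 at 0.26.

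Shank2 (chromosome 7, 143978077 to 144426043) was the least even of the Shanks. It stood at 165, 324 and 194 CPM in CFD input and 570, 261 and 310 in CFD IP. In HFD it stood at 107, 64.9 and 176 CPM in input and 378, 225 and 313 in IP. Animal 555 had less Shank2 in IP than in input (log2 ratio -0.31), whereas animals 489, 516 and 517 had ratios of 1.78 to 1.82. The mean log2 ratio was 0.72 ± 1.05 in CFD, with an SD larger than the mean, and 1.48 ± 0.56 in HFD. Shank2 shares 131 exonic bases with Gm14372 on the opposite strand, and reads of overlapping genes cannot be told apart where counting ignores strand, which the sources used here do not state.

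Homer1 (chromosome 13, 93303757 to 93405129) was the exception. It stood at 124, 188 and 227 CPM in CFD input and 96.6, 175 and 95.4 in CFD IP. In HFD it stood at 114, 133 and 129 CPM in input and 58.8, 86.7 and 120 in IP. All 6 animals had less Homer1 in IP, but by amounts from -0.11 (animals 555 and 676) to -1.25 (animal 556), and the means were -0.57 ± 0.60 in CFD and -0.56 ± 0.43 in HFD. Removing the trend with the GC content of the longest GENCODE transcript, in the fit with animal as a block, turned its difference to 0.65 in CFD and 0.46 in HFD. With the GC content of the RefSeq transcript instead, it stayed lower in CFD, at -0.23, so the reversal depends on the transcript taken. Homer1 makes a short form and long forms, which the table counts together.

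Ppp1r9b (chromosome 11, 94991212 to 95006898) and Caskin1 (chromosome 17, 24487897 to 24508909) had the largest ratios in CFD. Ppp1r9b stood at 277, 236 and 307 CPM in CFD input and 1325, 692 and 1049 in CFD IP, and at 177, 221 and 265 CPM in HFD input and 855, 433 and 459 in HFD IP. Its lowest IP value, 433 CPM, exceeded its highest input value, 307 CPM, and IP was 3.63-fold of input in CFD and 2.54-fold in HFD (log2 ratios 1.86 ± 0.36 and 1.34 ± 0.81). Caskin1 stood at 138, 101 and 106 CPM in CFD input and 306, 325 and 440 in CFD IP, and at 107, 106 and 113 CPM in HFD input and 215, 191 and 162 in HFD IP. Its inputs were alike on both diets, and the log2 ratio was 1.63 ± 0.46 in CFD and 0.79 ± 0.25 in HFD, and the CFD ratios (1.15 to 2.06) did not overlap the HFD ratios (0.51 to 1.0). The same order without overlap was found in 4.9% of tested genes. Caskin1 shares 60 exonic bases with Traf7 on the opposite strand, which had 28 to 1129 counts in a library against at least 2861 for Caskin1.

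**Figure D2:**
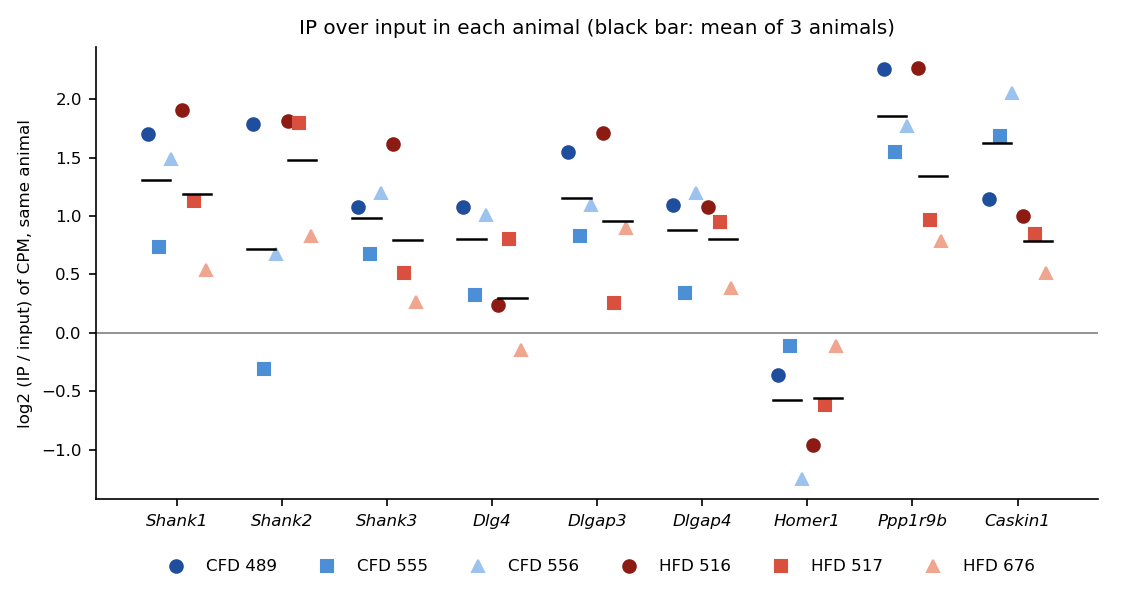
Log2 of the IP over input ratio of CPM (vertical axis) for each gene, 1 point per animal, with black bars for the mean of 3 animals of a diet. Ppp1r9b has the highest points, 2.26 and 2.27 in animals 489 and 516, Homer1 lies below 0 in all 6 animals, and the CFD and HFD points do not overlap for 1 of the 9, Caskin1, as for 9.89% of tested genes in either direction.

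The animals differed in how far the 9 genes stood above input. The median log2 ratio over the 9 was 1.62 in animal 516, 1.2 in animal 556, 1.15 in animal 489, 0.85 in animal 517, 0.67 in animal 555 and 0.51 in animal 676, beside medians over all tested genes from -0.25 to 0. Homer1 was the lowest of the 9 in 4 animals, Shank2 in animal 555 and Dlg4 in animal 676. Across the 12 libraries, log2 CPM of Shank1 followed the mean of the other 8 genes most closely (Pearson r = 0.97), followed by Ppp1r9b (0.95) and Dlgap3 (0.92), and Homer1 ran the other way (r = -0.42). These r values describe libraries that share animals and fraction.

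Counted by edgeR's quasi-likelihood test at an adjusted p under 0.1, Ppp1r9b, Caskin1 and Shank1 were 3 of the 25 genes called higher in CFD IP (0.174% of tested genes, and 27 genes or 0.188% in either direction), and none of the 9 was among the 2 genes called in HFD (0.0139%). Ranges of CPM lay apart, IP above input, for 7 of the 9 genes in each diet, as they did for 6.43% of tested genes in CFD and 6.13% in HFD. These contrasts chose the genes, and nothing is read from the counts. The CFD calls held in none of the fits without animal 489, 555 or 556 (0 of 9 called in each), and without animal 676 Shank1 (1.54) and Ppp1r9b (1.69) were called in HFD, where the member median was then 1.02. Fits that left out 1 animal called 0 to 35 genes in HFD. The fit with each mouse as a block pairs its IP with its input. It called 24 genes in HFD, among them Shank1, Ppp1r9b and Shank2, at log2 fold changes of 1.19, 1.34 and 1.48. DESeq2 called 5 of the 9 in each diet, among 816 genes called in CFD and 160 in HFD.

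Per length of transcript (RPKM, TMM-scaled CPM divided by the gene's length in kilobases), Shank1 led in all 4 groups, at 166 ± 14.1 in CFD input, 421 ± 121 in CFD IP, 120 ± 28.6 in HFD input and 276 ± 73.6 in HFD IP (SD, n = 3), which placed its mean above 98.6% to 99.7% of tested genes. Its range was apart from that of the next gene in all groups but CFD IP. In CFD input Dlg4 (94.9 ± 4.44) and Homer1 (84.1 ± 24.3) followed, in overlapping ranges, and Shank3, Caskin1 and Dlgap3 closed the order at 20.8 ± 4.07, 18.6 ± 3.29 and 18.2 ± 5.36. Ppp1r9b ranked 2 in CFD IP, at 236 ± 73.3 RPKM, and 4 in CFD input, at 63.1 ± 8.23, whereas Homer1 ranked 7 in CFD IP, at 57.2 ± 21.3, and 3 in input. No neighbours in the CFD IP order were apart in range. Homer1 is scaled by 2136 bases although its exons together cover 7736, so its level per length is the least sure.

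The effect of DIO on these genes was compared between mice in each fraction. All 9 genes had lower fitted levels in HFD than in CFD in both IP and input, although 3 in IP and 1 in input turned higher without the scaling factors. None passed an edgeR adjusted p under 0.1 in either fraction. In IP, log2 fold changes of HFD against CFD ran from -0.92 (SE 0.31, Caskin1) to -0.32 (SE 0.39, Shank2), with a median of -0.64 beside 0.03 over all tested genes, of which 51.3% were higher in HFD. The edgeR adjusted p-values of the 9 ran from 0.338 to 0.788, where 8 genes in all (0.0557%) were called. The CFD IP libraries enter both this comparison and the ratio that chose the genes, so a lower level in HFD IP is not independent of the choice. Without the scaling factors the median was -0.09, and Shank2, Shank3 and Homer1 turned to 0.23, 0.12 and 0.13.

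Caskin1 had the largest difference in IP, at 357 ± 72.5 CPM in CFD and 189 ± 26.6 in HFD, and its 3 HFD values (162 to 215) lay below its 3 CFD values (306 to 440). Dlgap4 was the only other gene with ranges apart in IP, at 509 ± 153 CPM in CFD and 295 ± 69.1 in HFD. These 2 of 9 genes compare with 4.66% of tested genes that were apart and lower in HFD. Of the 9, 5 (Caskin1, Ppp1r9b, Dlgap4, Shank1 and Dlg4) had an unadjusted edgeR p under 0.05 and lower levels, beside 4.82% of tested genes. Ppp1r9b averaged 1022 ± 317 CPM in CFD IP and 582 ± 236 in HFD IP (log2 fold change -0.81, SE 0.31, edgeR adjusted p = 0.376), and Shank1 3200 ± 921 and 2100 ± 559 (-0.61, SE 0.27, adjusted p = 0.408), each with overlapping ranges. DESeq2 called 770 genes, among them Caskin1 (log2 fold change -0.94, adjusted p = 0.0468) and no other of the 9. Over the 14 alternatives to the fit the adjusted p of Caskin1 ran from 0.0468 to 0.664.

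In input, the 9 genes also stood lower in HFD, with log2 fold changes from -0.97 (SE 0.39, Shank2) to -0.08 (SE 0.30, Caskin1) and a median of -0.46, beside -0.0040 over all tested genes, of which 49.7% were higher. Other lists of genes stood lower in HFD input too, so the direction was not particular to the 9. Of 12 neuron markers 0 were higher (median -0.28), of 8 mRNAs known for transport into dendrites 2 (-0.46). Of 8 glutamate receptor genes 1 was higher (-0.26) and of 8 astrocyte markers 1 (-0.46), whereas 9 of 13 tested endothelial markers were higher (1.33). Caskin1 turned to 0.06 without animal 489 and to 0.08 without the scaling factors. No gene of the table was called by edgeR in input (0%), where 292 genes had an unadjusted p under 0.05 and DESeq2 called 31 genes, none of the 9. Shank2 averaged 228 ± 84.8 CPM in CFD input and 116 ± 56.2 in HFD input, with overlapping ranges. Dlgap4 averaged 271 ± 39.4 and 168 ± 31.5 CPM (log2 fold change -0.69, SE 0.31, edgeR adjusted p = 1.0), and its 3 HFD inputs (132 to 192) lay below its 3 CFD inputs (225 to 293). Dlg4 was the other gene whose ranges were apart, at 299 to 329 CPM in CFD and 253 to 294 in HFD, and 4.33% of tested genes were apart and lower. Shank2 and Dlgap4 were the 2 of 9 with an unadjusted edgeR p under 0.05 and lower levels, beside 0.941% of tested genes. The input libraries also enter the ratio that chose the genes. A lower level in HFD input is therefore not independent of the choice, and nothing is read from these counts. Dlgap4 was thus apart between diets in both fractions, which come from the same mice, without passing the adjusted test in either. The share of tested genes apart in both fractions was not counted, so nothing is read from this. Without animal 676 the member median was -0.64 in IP and -0.54 in input, again with 0 of 9 called in each.

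**Figure D3:**
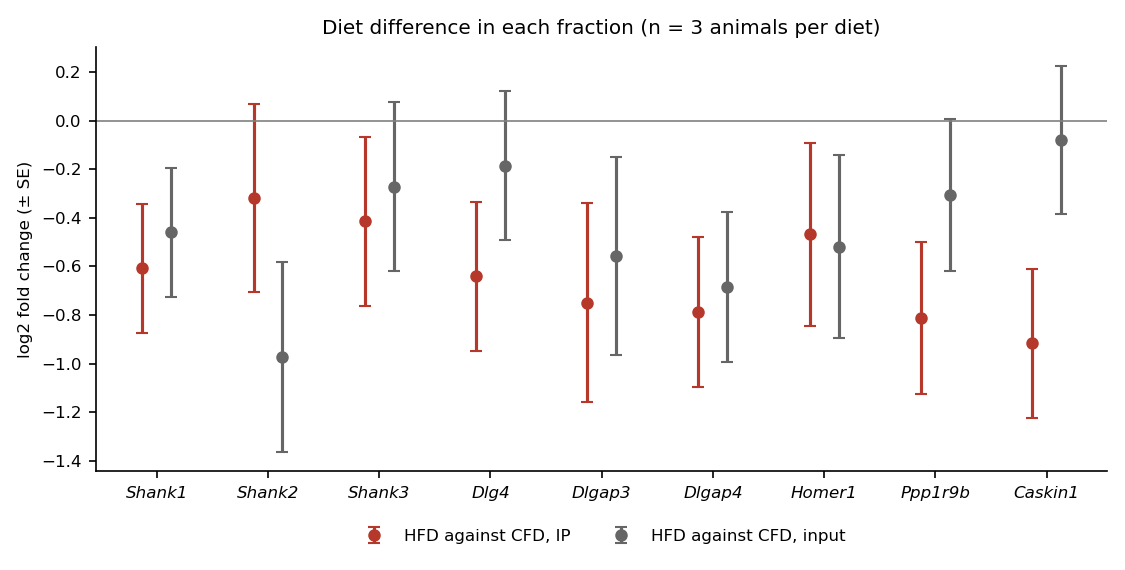
Log2 fold change of HFD against CFD (vertical axis) with its SE for each gene, in IP (red) and in input (grey), from edgeR with 3 animals per diet. All 18 points lie below 0 on this scale, from -0.97 for Shank2 in input to -0.08 for Caskin1 in input, and none passed the adjusted threshold.

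Whether the IP over input difference itself changed with diet was asked with an interaction term. It is built from the ratios that were seen before the genes were chosen, so its values for the 9 are a description. None of the 9 was called, nor was any other gene (0%). Over all genes, 770 had an unadjusted edgeR p under 0.05 and DESeq2 called 121, and 0 of the 9 were among either. The term was lowest for Caskin1, at -0.84 (SE 0.43), and highest for Shank2, at 0.66 (SE 0.55). Homer1 had nearly the same IP over input difference on both diets (0.05, SE 0.53), so that changes of either sign lie within its error. The median over the 9 was -0.15, beside 0.06 over all tested genes, and it changed sign under removal of the GC trend and without scaling factors. Leaving out each animal in turn moved it from -0.54 to -0.03 (-0.16 without animal 676), and the Shank2 term from 0.10 without animal 555 to 1.26 without animal 489.

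Transcripts of the 9 genes were rich in G and C and mostly long. By RefSeq transcripts, GC content ran from 65.6% in Dlgap3, 62.9% in Shank1, 62.4% in Shank3, 61.6% in Ppp1r9b and 60.5% in Caskin1 to 59.5% in Dlgap4, 57.3% in Dlg4, 55.1% in Shank2 and 51.1% in Homer1, beside a median of 50.2% over 13566 tested genes. Of the 9, 8 lay above the upper quartile of 55.0%, and Homer1 was the lowest, with a coding GC of 44.0% (and 36.9% over its longest GENCODE transcript). Dlg4 also depends on the transcript taken, with 46.8% in its longest GENCODE transcript. The 4 sequences printed above show the same contrast for Ppp1r9b and Homer1, though the Caskin1 window is less rich than its whole transcript. Transcript length ran from 2874 bases in Homer1 to 7723 in Shank2, against a median of 2978, and 5 of the 9 exceeded the upper quartile of 4496 bases.

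The gene with the lowest GC content was also the gene that was lower in IP. Over the 9 genes the correlation of GC content with log2 fold change of IP against input was r = 0.78 in CFD and 0.63 in HFD, and over the 8 genes without Homer1 it was 0.48 and 0.08. Across the 13566 tested genes with a transcript it was 0.17 and 0.14. Genes are not independent replicates, and these values share the same libraries. With the GC trend removed from each library and animal as a block, the median of the 9 was 0.84 in CFD and 0.98 in HFD, and Ppp1r9b and Caskin1 stood at 1.67 and 1.5 in CFD.

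**Figure D4:**
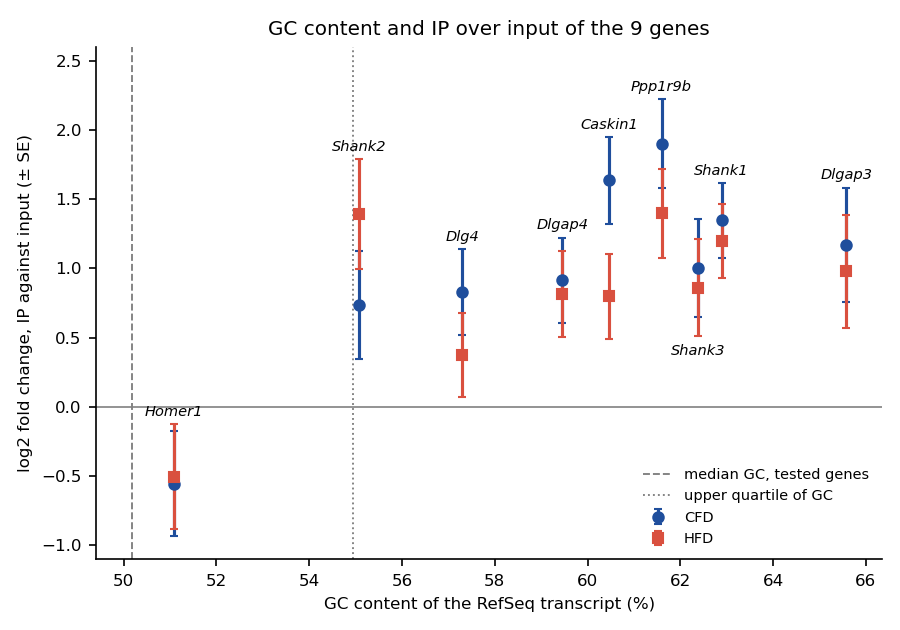
GC content of the RefSeq transcript (horizontal axis, percent) and log2 fold change of IP against input with its SE (vertical axis) for the 9 genes, CFD in blue circles and HFD in red squares. Homer1, at 51.1%, is the only gene below 0, and the other 8 genes lie to the right of the upper quartile of tested genes (dotted line, 55.0%).

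Other scaffolds of the postsynaptic density also stood mostly higher in IP. Of 24 other scaffold genes, 21 were higher in CFD IP and 20 in HFD IP, with medians of 0.72 and 0.60. Iqsec1, an exchange factor for Arf proteins at the density, was the only 1 called, in CFD (log2 fold change 1.62, SE 0.32, edgeR adjusted p = 0.0711). The list was chosen with earlier results of these data known, so nothing is read from that call. Begain, a partner of Dlg4, had the largest difference on both diets (1.92, SE 0.52, and 1.28, SE 0.51) without being called, and Caskin2 (1.64, SE 1.14) in CFD and Iqsec1 (1.25, SE 0.32) and Iqsec2 (1.08, SE 0.40) in HFD came next. At the low end stood Cttn, the actin-binding cortactin (-0.98, SE 0.68, in CFD and -0.83, SE 0.67, in HFD), followed by Dlg1 (-0.12) and Homer2 (-0.11) in CFD and by Dlg3 (-0.43) and Caskin2 (-0.26) in HFD. Homer2 and Homer3, relatives of Homer1, had CFD values of -0.11 (SE 0.34) and 0.06 (SE 1.21), and Ppp1r9a, the relative of Ppp1r9b, 0.60 (SE 0.30).

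Between diets, 5 of the 24 other scaffolds were higher in HFD IP, with a median of -0.33, and 8 of 24 in HFD input, with a median of -0.12, and none was called. Of 8 mRNAs known for transport into dendrites, 7 were higher in CFD IP (median 0.60) and 6 in HFD IP (0.56), and 0 of 8 were higher in HFD IP than in CFD IP (median -0.41), again with none called. The 12 neuron markers had medians of 0.10 in CFD IP against input and 0.40 in HFD, with 7 and 9 of 12 higher, and 7 of 12 were higher in HFD IP than in CFD IP. Summed, the neuron markers were lower in IP than in input in the 3 CFD animals (log2 ratio -0.46 to -0.32) and higher in the 3 HFD animals (0.06 to 0.23), while the sum of the 9 scaffold genes was higher in all 6 (0.49 to 1.56). With the scaling factors, sums of glial markers also stood mostly higher in IP. Those of oligodendrocyte progenitors were higher in 6 animals (0.06 to 1.2, median 0.62), of astrocytes in 5 (-0.20 to 1.04, median 0.75), of oligodendrocytes in 5 (-0.01 to 0.80, median 0.41) and of microglia in 4 (median 0.23), and pericyte markers in 2 (median -0.48). Endothelial markers, which were sparse, had a higher sum in IP in 5 animals (-0.99 to 2.81, median 0.99). Single genes weighed heavily in these sums, such as Egfl7 with 3650 counts in IP of animal 556 and Slco1a4 with 1667 in IP of animal 516. Taken singly, 8 of 13 tested endothelial markers were higher in IP in CFD (median 0.40) and 6 of 13 in HFD (-0.84). The mean log2 ratio of the endothelial sum was 1.69 ± 1.11 in CFD and 0.18 ± 1.19 in HFD. Without the scaling factors it ran from -0.21 to 1.81 in CFD and -1.22 to 0.77 in HFD. In HFD without the scaling factors the neuron sum was also lower in IP (-0.46 to -0.0048), and the scaffold sum in animal 555 turned to -0.01. Without these factors the oligodendrocyte, astrocyte and microglia sums were lower in IP in every CFD animal (-0.87 to -0.11, -1.0 to -0.01 and -1.3 to -0.45). In HFD they ran from -0.24 to 0.32, -0.15 to 0.51 and -0.51 to 0.72. Sums of oligodendrocyte progenitors then ran from -0.44 to 0.11 in CFD and -0.17 to 0.79 in HFD. The part of neuronal or glial RNA in the scaffold values was not tested.

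**Figure D5:**
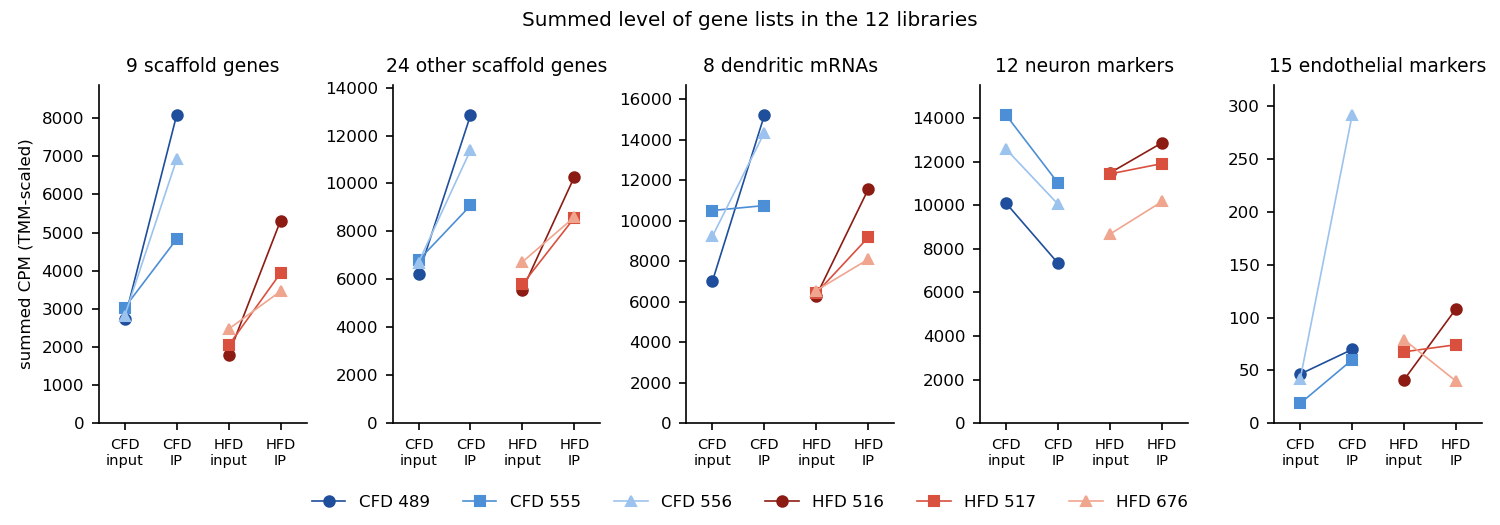
Summed TMM-scaled CPM (vertical axes, linear from 0) of the 9 scaffold genes and of 4 lists in the 12 libraries, with lines joining input and IP of an animal. In each of the 6 animals the scaffold sum lies higher in IP, neuron marker sums lie lower in the 3 CFD animals and higher in the 3 HFD animals, and endothelial marker sums stay at or under 291 CPM.

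The 5 other genes whose log2 CPM over the 12 libraries was most like the mean profile of the 9 were Kif1a, a motor for synaptic vesicle precursors (Pearson r = 0.970), Rn45s (0.952), 2610507B11Rik (0.951), Lars2, a mitochondrial leucyl-tRNA synthetase (0.950), and Fbxl16, an F-box protein (0.950). Rn45s and Lars2 were far higher in IP, with mean log2 ratios of 2.74 and 2.70 in CFD and 1.61 and 1.76 in HFD. The profile is a mean from which Homer1 departs. In CFD IP the 9 genes summed to 8073, 4826 and 6914 CPM in animals 489, 555 and 556, with 39.1%, 38.7% and 42.3% Rn45s. In HFD IP they summed to 5310, 3935 and 3460 CPM in animals 516, 517 and 676, with 19.1%, 17.8% and 17.1%. Leaving Rn45s and Lars2 out of the counts left the same 3 of the 9 called in CFD, among 22 genes, and none of the 9 in the other comparisons. The TMM factors already limit the weight of these RNAs, so nothing about their part is read from that fit. The part of ribosomal RNA carried into IP in these values was not tested.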

How the data were processed

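RNA was sequenced from IP and input of 6 mice (12 libraries, 3 mice per diet). The labels name a NuGEN low-mass kit, whereas the study's methods name a TruSeq kit with ribosomal RNA depletion. Per the labels, the authors aligned reads with STAR to mm10 and HTSeq is among the tools. The options and strand of counting are not given in the sources used here. The deposited table holds raw counts per gene symbol, which were used, and FPKM values computed by the authors, which gave only gene lengths. Its normalized counts, fold changes and p-values from the authors' own comparisons were not used.

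Counts were filtered (filterByExpr, minimum count 10, 14354 of 24060 genes kept), TMM-scaled and fitted with edgeR 4.0.16 (R 4.3.3) by quasi-likelihood over 4 groups with a shared dispersion, with Benjamini-Hochberg adjustment over all tested genes and a threshold of 0.1. SEs are the log2 fold change divided by the root of F. Pair ratios used log2 CPM with a prior count of 2. Alternatives were RLE scaling, no filter, DESeq2 1.42.0, Rn45s and Lars2 left out, each animal left out, animal as a block (fixed, or limma 3.58.1 between animals), GC trend removed with the block, and, chosen after seeing the data, no scaling factors and GC of the longest GENCODE transcript. IP and input with the same number come from the same mouse (correlation of their deviations 0.0064 to 0.190, median -0.0098 between mice). Counts measure reads. The edgeR p-values rest on a spread estimated within the 4 groups of 3 mice over all 12 libraries. They treat IP and input of a mouse as separate libraries, except in the fits with the block. Replicate libraries differed beyond sampling noise. GC content came from the RefSeq transcript nearest in length to the authors' gene length.

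The members and gene lists were chosen with earlier results of these data known. Named genes were all 9 members, genes of the lists called in a comparison, the 3 largest differences in each direction among 24 other scaffolds, the 5 genes most correlated with the members, Rn45s and Lars2. Homer3 and Ppp1r9a were added after their values were seen.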

Additional observations from a re-analysis of the deposited data

Results flagged for a closer look

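The summed level of the 12 neuron markers was lower in IP than in input in all 3 CFD animals (mean log2 ratio -0.38 ± 0.07, SD, n = 3) and higher in all 3 HFD animals (0.15 ± 0.09), a difference of 0.532 between diets. It drew attention because every animal of each diet moved the opposite way to those of the other. Marker by marker, 7 of the 12 were higher in IP in CFD (median log2 fold change 0.10) and 9 in HFD (0.40), so the CFD sum ran against most of its genes. The difference of the sums between diets was not tested, and without the scaling factors the HFD animals were lower too, at -0.46 to -0.0048.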

How the results depend on the processing

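Of 532 values of member fold changes under the alternatives (9 members in 4 comparisons, and Caskin1 and Shank2 in the interaction), 521 kept their direction. Among the other interaction terms, Shank1 (-0.54 to 0.23), Shank3 (-0.65 to 0.23), Dlgap3 (-0.61 to 0.23), Dlgap4 (-0.36 to 0.32) and Homer1 (-0.30 to 0.49) changed sign under some alternative. Without scaling factors, which leave Rn45s in the totals, 1014 genes were called in CFD IP against CFD input (17 higher and 997 lower, against 25 and 2) and 244 in HFD IP against CFD IP (237 higher and 7 lower, against 3 and 5). The member medians were then 0.18 and -0.09, and the interaction median 0.23. Shank2 (-0.06) and Dlg4 (-0.0039) reversed in CFD IP against input, Dlg4 (-0.06) in HFD IP against input, Shank2 (0.23), Shank3 (0.12) and Homer1 (0.13) in HFD IP against CFD IP, and Caskin1 (0.08) between inputs. With the replicate block, 139 genes were called in CFD IP against input, 24 genes and 3 members in HFD IP against input, and 5 genes in HFD IP against CFD IP. With the GC trend also removed these counts were 120, 7 and 2 genes, and with GENCODE GC 127, 8 and 2. The interaction median turned to 0.13 and 0.10 in these fits, and Homer1 under GENCODE GC to 0.65 in CFD and 0.46 in HFD. Under RefSeq GC Homer1 stayed at -0.23 in CFD. Dlg4 under GENCODE GC moved to 1.38 in CFD and was called. Shank1 was not called in CFD under RefSeq GC (1.07) or GENCODE GC (1.13). None of the 3 members that the block fit called in HFD was called under either. The block by itself changed no other member's call.

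DESeq2 called 816, 160, 770, 31 and 121 genes in IP against input of CFD and of HFD, between the IPs, between the inputs and in the interaction, with 5, 5 and 1 members in the first 3. With no filter the counts were 312, 79, 219, 3 and 44 genes, with 3 members in HFD IP against input. Without Rn45s and Lars2, 0 genes were called in HFD IP against input and 5 in HFD IP against CFD IP. Leaving out each animal gave 2 to 52 genes, 0 to 3 members and a median of 0.91 to 1.30 in CFD IP against input. It gave 0 to 35 genes and 0 to 2 members in HFD IP against input, 1 to 20 genes in HFD IP against CFD IP, and 0 to 1 between inputs and in the interaction. Shank2 in HFD IP against CFD IP then ran from -0.53 to 0.08 and Caskin1 between inputs from -0.16 to 0.06, both reversed without animal 489. The cause of these changes was not tested, except that leaving out an animal leaves 2 mice in a group. The counts rest on 3 mice per group and a common biological coefficient of variation of 101% across genes, and of 29.5% to 38.7% for the 9 genes.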

Other observations

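Of 6 genes of the inhibitory postsynapse, IP exceeded input for 1 in CFD (median log2 fold change -0.42) and for 5 in HFD (0.44), beside 49.1% and 49.4% of tested genes. The interaction was positive for all 6 of them (median 0.60), with none called by edgeR and 1 at an unadjusted p under 0.05. It was positive for 52.2% of tested genes (median 0.06), for 9 of 12 neuron markers (0.38) and for 9 of the 24 other scaffolds (-0.22). Of 8 adhesion partners of the scaffolds, 3 were higher in CFD IP (median -0.12) and 8 in HFD IP (0.51). Of 8 glutamate receptor genes, 5 and 7 were higher (medians 0.13 and 0.37). No gene of these 3 lists was called in any of the 5 comparisons.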
